A study of Mus musculus with 12 samples.

Results

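The 39 genes described here encode proteins of the Fanconi pathway and of homologous recombination, which together repair crosslinked and broken DNA. They were taken by gene symbol from tables of 46517 genes, and all 39 were found and passed the filter on low counts in both lines. RNA was sequenced from 4 groups of mouse tumour cell lines with 3 libraries each. They were B16F10 melanoma cells given 0.1 µM decitabine (DAC), B16F10 control cells, 4T1 mammary carcinoma cells given 1 µM decitabine, and 4T1 control cells. Decitabine is a cytidine analogue that is built into DNA and traps DNA methyltransferases on it. Treatment lasted 48 h in multiwell plates, dead cells were removed with microbeads from the culture before RNA was taken, and the labels do not state what the control cells received. Dose and line changed together, so that a difference between the lines cannot be told apart from a difference of dose.

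Homologous recombination copies the sister chromatid to mend a break: the Mre11a, Rad50 and Nbn complex senses the break, nucleases trim its ends, and Brca1, Palb2 and Brca2 prepare the exposed strand to invade the sister. The Fanconi core complex is a ubiquitin ligase that, with the conjugating enzyme Ube2t, marks the Fancd2 and Fanci pair at stalled replication forks and crosslinks, and Usp1 removes the mark. The kinases Atm and Atr, with Chek1 and Chek2 downstream, halt the cell cycle meanwhile. Cells that lack these pathways are known to be sensitive to decitabine, and transcripts of many of the genes are known to be most abundant in S phase.

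The libraries held 48197936 to 76042600 estimated counts. Each line carried its own markers. The 10 melanocyte markers summed to 9741 to 9925 CPM (counts as a share of the library's scaled total) in B16F10 decitabine libraries and 12248 to 12575 CPM in B16F10 controls, against 8.92 to 10.5 CPM in 4T1 decitabine libraries and 5.93 to 6.91 CPM in 4T1 controls. The 12 mammary epithelial markers summed to 6.49 to 8.30 CPM in B16F10 decitabine libraries and 4.06 to 5.23 CPM in B16F10 controls, against 3427 to 3669 CPM in 4T1 decitabine libraries and 4018 to 4243 CPM in 4T1 controls. The 10 most counted genes took 9.22% to 11.1% of the counts in B16F10 decitabine libraries and 8.34% to 9.67% in B16F10 controls, and 22.4% to 23.9% in 4T1 decitabine libraries against 5.42% to 5.80% in 4T1 controls. Whether replicates came from separate cultures is not stated, so p-values measure only the spread between these libraries, and that spread may be technical.

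Most of these repair genes were lower with decitabine in both lines. In B16F10, 30 of the 39 fell, 2 rose and 7 did not pass the test (edgeR's quasi-likelihood test, Benjamini-Hochberg adjusted p under 0.05 over all genes tested), where 41.2% of all 14344 genes tested were called, 19.8% as lower and 21.4% as higher. The median log2 fold change was -0.43 over the 39 genes and 0.0030 over all genes tested. In 4T1, 26 fell, 6 rose and 7 did not pass, where 75.3% of all 15523 genes tested were called, 36.1% as lower and 39.2% as higher. There the median was -0.30 over the 39 genes and 0.03 over all genes tested. With libraries scaled by their totals alone, 34 members were lower and 0 higher in 4T1 by edgeR, with Mus81 the 1 member whose value stayed above 0, and the median of all genes moved to -0.27. Upper-quartile scaling moved 4T1 the other way, to a median of 0.15 over all genes and -0.17 over the members. The lower calls of Palb2, Fanca, Ube2t and Slx4 were lost there, and Rad51ap1 and Rad51c passed as higher. Relative to the median of all genes, the median of the members was -0.32 in 4T1 with each of these scalings. That gap is no check on the scaling, since a new scaling shifts all genes by nearly the same amount. The treated libraries of B16F10 all lay below the controls for 31 members and all above for 2, where 50.4% of all genes had groups apart, 24.4% below and 26% above. In 4T1 they lay below for 27 members and above for 7, where 78.2% of all genes had groups apart, 37.6% below and 40.7% above. Fewer cells that express a gene and less of its RNA per cell cannot be told apart in these bulk samples.

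**Figure D1:**
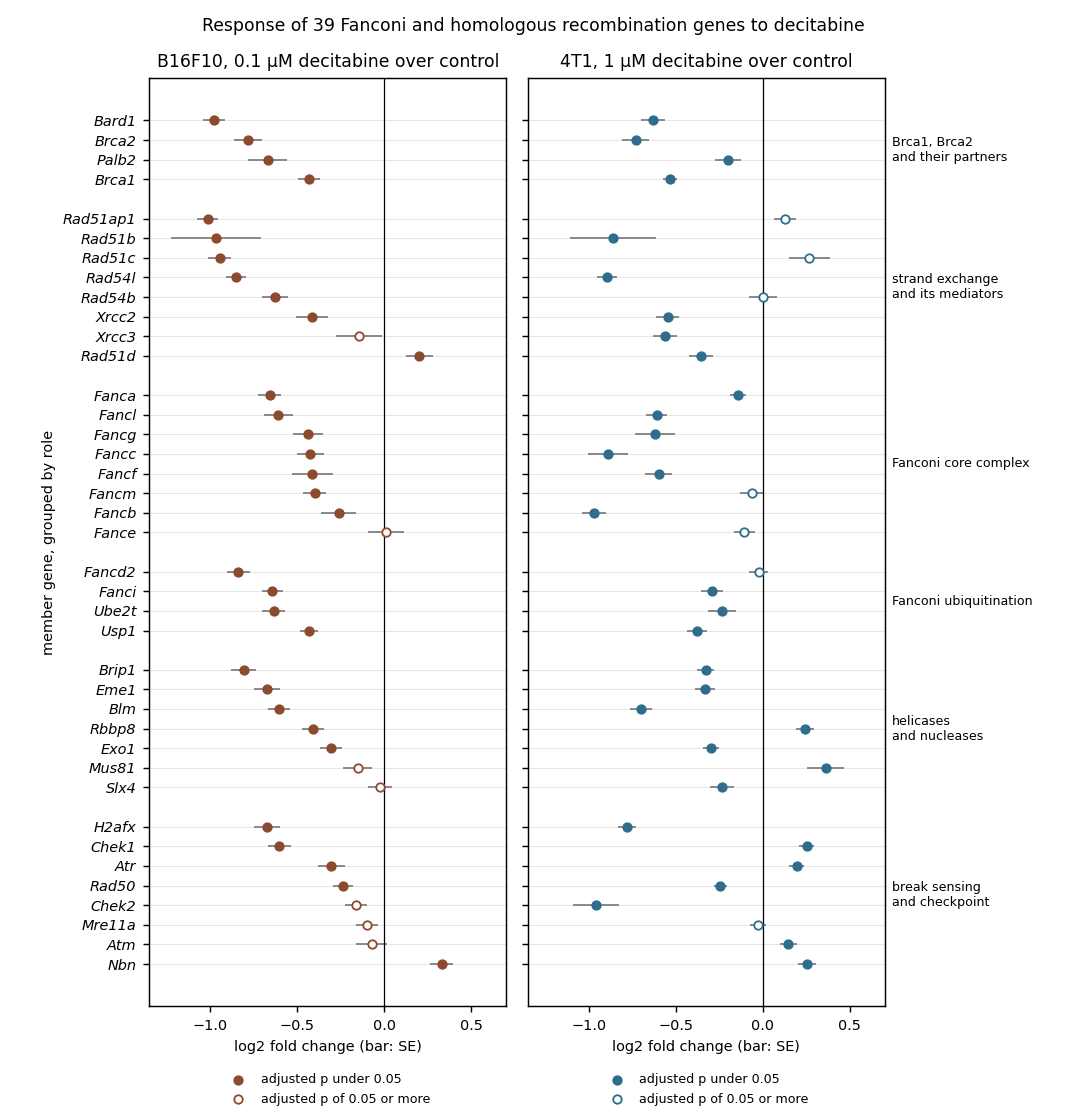
Log2 fold change of each of the 39 genes, decitabine over control, in B16F10 on the left and 4T1 on the right, grouped by role. Bars are standard errors and filled points passed an adjusted p of 0.05. In B16F10 30 filled points lie left of 0 and 2 right of it. In 4T1 the numbers are 26 and 6, and with scaling by library totals alone they are 34 and 0. Upper-quartile scaling took away 4 of the lower calls in 4T1 and added 2 higher ones.

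Among the 12946 genes tested in both lines, 12.3% were lower in both, 11.2% higher in both, 3.83% lower in B16F10 and higher in 4T1, and 5.79% higher in B16F10 and lower in 4T1. Of the 39 members, 22 were lower in both lines and 1, Nbn, was higher in both. Atr, Chek1 and Rbbp8 were lower in B16F10 and higher in 4T1, and Rad51d was higher in B16F10 and lower in 4T1. Another 5 were lower in B16F10 alone, 3 lower and 2 higher in 4T1 alone, and 2, Fance and Mre11a, passed in neither line. With scaling by library totals alone the 4T1 values of Nbn, Atr, Chek1 and Rbbp8 lay below 0 (-0.11 to -0.046). By edgeR, Atr then passed as lower in 4T1 (adjusted p = 0.0436), and Rad51d did not pass in B16F10 (0.0932). A call in 1 line alone is not a test of a difference, which was tested in a fit of all 12 libraries. By that test 49.8% of 17127 genes were called, 20.9% as lower and 28.9% as higher, and 53.8% of the members, near that share. Of the members 16 responded lower in B16F10 than in 4T1, 5 higher, and 18 did not pass. With scaling by library totals alone these numbers were 7 lower and 20 higher, and the median of all genes was 0.28, against 0.05 with the scaling used here. The calls lost under library totals alone were those of Bard1, Palb2, Fancm, Ube2t, Fanci, Brip1, Eme1, Mus81 and Atr.

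**Figure D2:**
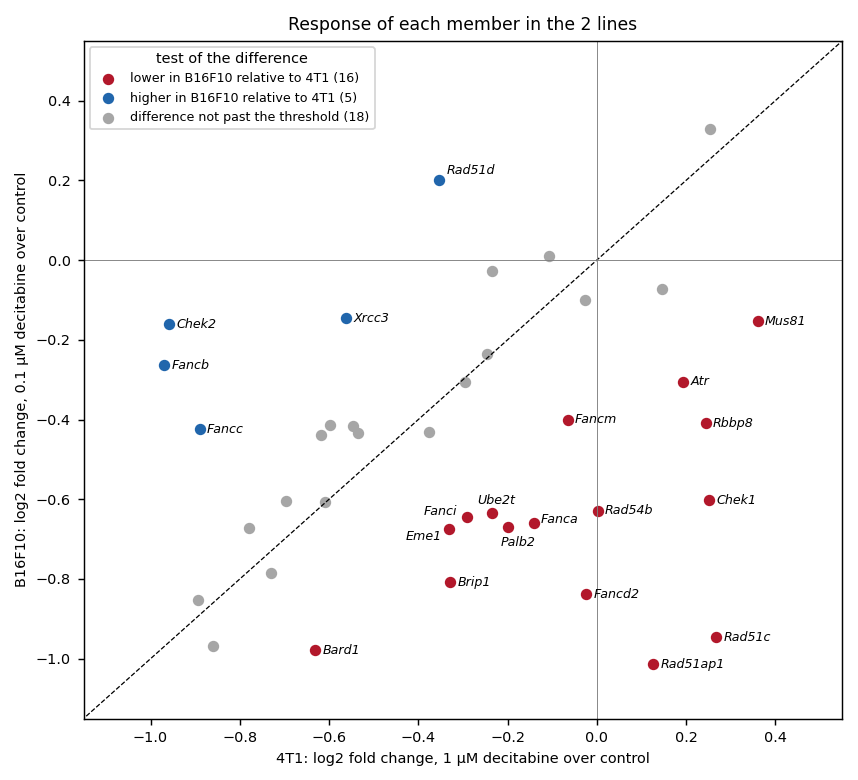
Log2 fold change of each member with decitabine in B16F10 (vertical) against 4T1 (horizontal), each from the fit of its own 6 libraries, with the line of equal response dashed. Colour gives the test of the difference in the fit of all 12 libraries: 16 members lie lower in B16F10, 5 higher, and 18 did not pass; scaled by library totals alone, 7 were lower and 20 higher.

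Promoters are shown for 5 of the 6 members with the largest decreases or increase within a line. Rad51ap1 and Bard1 had the largest decreases in B16F10, Fancb and Chek2 the largest decreases in 4T1, Nbn the largest increase in B16F10 and Mus81 the largest increase in 4T1. The windows are from RefSeq (GRCm38.p6) and run from 250 bases before to 50 bases after the gene's start, 5′ to 3′ on the gene's strand. Capitals mark E2F motifs (TTTCCCGC, TTTCGCGC, TTTGCCGC or TTTGGCGC), the cell cycle homology region (TTTGAA or TTCGAA) and the CCAAT box (CCAAT), each on either strand, and no marked motif overlaps another.
Rad51ap1 (chr6:126939538-126939837, minus strand): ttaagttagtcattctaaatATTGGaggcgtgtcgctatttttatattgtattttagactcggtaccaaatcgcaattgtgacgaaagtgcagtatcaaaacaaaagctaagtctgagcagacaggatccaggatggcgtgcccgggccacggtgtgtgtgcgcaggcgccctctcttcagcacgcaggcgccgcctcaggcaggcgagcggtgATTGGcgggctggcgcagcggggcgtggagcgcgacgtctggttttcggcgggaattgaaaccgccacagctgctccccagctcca
Bard1 (chr1:71102923-71103222, minus strand): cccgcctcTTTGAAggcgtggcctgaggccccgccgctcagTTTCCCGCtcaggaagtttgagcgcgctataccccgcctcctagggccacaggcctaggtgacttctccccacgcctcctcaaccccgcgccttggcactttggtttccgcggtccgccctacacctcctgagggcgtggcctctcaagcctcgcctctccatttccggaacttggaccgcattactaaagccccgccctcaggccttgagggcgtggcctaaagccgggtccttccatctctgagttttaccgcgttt
Fancb (chrX:164980342-164980641, plus strand): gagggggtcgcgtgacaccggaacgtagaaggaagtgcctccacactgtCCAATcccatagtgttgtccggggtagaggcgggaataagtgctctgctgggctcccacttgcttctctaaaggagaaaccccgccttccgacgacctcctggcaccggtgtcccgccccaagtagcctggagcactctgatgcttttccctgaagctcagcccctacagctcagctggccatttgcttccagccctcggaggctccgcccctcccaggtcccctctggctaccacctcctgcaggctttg
Chek2 (chr5:110839733-110840032, plus strand): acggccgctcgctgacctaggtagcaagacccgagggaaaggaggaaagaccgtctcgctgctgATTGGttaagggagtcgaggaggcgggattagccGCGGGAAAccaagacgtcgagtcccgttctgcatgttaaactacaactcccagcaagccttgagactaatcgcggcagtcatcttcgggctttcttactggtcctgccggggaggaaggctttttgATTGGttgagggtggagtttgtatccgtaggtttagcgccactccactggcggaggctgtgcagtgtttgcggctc
Mus81 (chr19:5488330-5488629, minus strand): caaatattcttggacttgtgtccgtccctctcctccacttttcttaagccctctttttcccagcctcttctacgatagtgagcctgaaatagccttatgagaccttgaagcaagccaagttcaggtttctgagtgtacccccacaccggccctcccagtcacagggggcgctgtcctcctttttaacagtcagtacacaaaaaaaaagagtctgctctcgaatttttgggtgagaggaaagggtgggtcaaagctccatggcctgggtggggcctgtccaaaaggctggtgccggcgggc
The Rad51ap1 window holds 25 CpG dinucleotides and 2 CCAAT boxes, and the Bard1 window 23 CpG, 1 E2F motif and 1 cell cycle homology region. The Fancb window has 13 CpG and 1 CCAAT box, the Chek2 window 21 CpG, 1 E2F motif and 2 CCAAT boxes, and the Mus81 window 7 CpG and no marked motif. RefSeq windows matched 29 of the 39 members, 32 windows in all. An E2F motif was in 18.8% of the members' windows and in 2.27% of all 32841 windows, a CCAAT box in 65.6% and 37.4%, a GC box (GGGCGG, either strand) in 56.2% and 35.7%, and a cell cycle homology region in 12.5% and 19.2%. The median number of CpG dinucleotides was 22 in the members' windows and 7 in all windows. A match of letters describes the window and is not a binding site.

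Brca1, Brca2 and their partners Bard1 and Palb2, which act on resected ends before strand exchange, all fell in both lines. Over all genes tested, 19.8% fell in B16F10 and 36.1% in 4T1. Bard1, the ring finger partner of Brca1 (ENSMUSG00000026196, mm10 chromosome 1, 71027498 to 71103146, minus strand), had 20.5, 21.4 and 19.6 CPM in B16F10 decitabine libraries, against 41.2, 38.6 and 41.2 CPM in B16F10 controls. Bard1 had 39.9, 35.8 and 33.1 CPM in 4T1 decitabine libraries, against 52.7, 58.8 and 56.6 CPM in 4T1 controls. All treated libraries lay below all controls in both lines. For Bard1 the log2 fold change was -0.98 (SE 0.0643, adjusted p = 7.91e-10) in B16F10 and -0.63 (SE 0.0703, adjusted p = 1.3e-05) in 4T1, and the difference was -0.30 (adjusted p = 0.0161, and 0.0642 without 4T1 decitabine replicate 1). Palb2, which joins Brca1 to Brca2, had 9.29, 8.23 and 9.29 CPM in B16F10 decitabine libraries, against 12.7, 16.3 and 13.7 CPM in B16F10 controls. In 4T1 Palb2 had 10.2, 10.9 and 11.7 CPM with decitabine, against 12.2, 12.99 and 12.6 CPM in controls. The groups did not overlap in either line, and the drop in 4T1 was the smaller. For Palb2 the log2 fold change was -0.67 (SE 0.112, adjusted p = 8.77e-05) in B16F10 and -0.20 (SE 0.0738, adjusted p = 0.0301) in 4T1, with a difference of -0.43 (adjusted p = 0.0177). The 4T1 call for Palb2 was lost without decitabine replicate 1 or 2 or control replicate 2 or 3 (adjusted p = 0.117, 0.0801, 0.0825 and 0.0597), by DESeq2 (0.0718) and with upper-quartile scaling (0.373), and its difference was lost without 4T1 decitabine replicate 3 (0.0536) or B16F10 control replicate 2 (0.0595). Brca1 (ENSMUSG00000017146, mm10 chromosome 11, 101488764 to 101551955, minus strand) fell by 0.43 on the log2 scale in B16F10 (adjusted p = 1.98e-05) and by 0.54 in 4T1 (adjusted p = 4.68e-07). Its level ran from 67.99 to 78.9 CPM in B16F10 decitabine libraries against 97.6 to 101 CPM in B16F10 controls, and from 48.8 to 50.3 CPM in 4T1 decitabine libraries against 71.2 to 72.5 CPM in 4T1 controls. Brca2, which Palb2 brings to the break, fell by 0.78 (adjusted p = 4.08e-07) and 0.73 (adjusted p = 1.06e-05) in B16F10 and 4T1. Neither the difference for Brca1 (0.15, 95% interval -0.01 to 0.31, adjusted p = 0.107, and 0.0232 without B16F10 decitabine replicate 3) nor that for Brca2 (-0.0065, interval -0.27 to 0.25, adjusted p = 1) passed the test.

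The 8 genes of strand exchange include Rad51b, Rad51c, Rad51d, Xrcc2 and Xrcc3, a family of related proteins, and the Rad54 motors. In B16F10 6 of them fell and 1 rose, and in 4T1 5 fell and 3 did not pass. The shares over all genes were 19.8% lower and 21.4% higher in B16F10, and 36.1% and 39.2% in 4T1. Rad51ap1, which stimulates strand exchange (ENSMUSG00000030346, mm10 chromosome 6, 126923050 to 126939587, minus strand), had 52.1, 51.3 and 47.9 CPM in B16F10 decitabine libraries, against 99.7, 103 and 103 CPM in B16F10 controls. Rad51ap1 had 19.05, 19.1 and 19.03 CPM in 4T1 decitabine libraries, against 17.9, 18.1 and 16.4 CPM in 4T1 controls. The treated B16F10 libraries lay well under their controls, while the treated 4T1 libraries lay slightly above theirs, and the groups overlapped in neither line. For Rad51ap1 the log2 fold change was -1.01 (SE 0.0599, adjusted p = 1.83e-10) in B16F10, 0.13 (SE 0.0612, adjusted p = 0.0815) in 4T1 and -1.09 for the difference (adjusted p = 3.1e-09). The direction in 4T1 depended on the scaling: the value was -0.17 (adjusted p = 0.0260) with scaling by library totals alone and 0.25 (adjusted p = 0.00347) with upper-quartile scaling.

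Rad51c, a member of that family found in complexes that assist strand exchange (ENSMUSG00000007646, mm10 chromosome 11, 87376645 to 87404954, minus strand), had 16.3, 16.1 and 16.5 CPM in B16F10 decitabine libraries, against 31.5, 31.8 and 30.9 CPM in B16F10 controls. Rad51c had 9.85, 9.75 and 10.7 CPM in 4T1 decitabine libraries, against 10.2, 7.65 and 7.46 CPM in 4T1 controls. The B16F10 groups were far apart, and the 4T1 groups overlapped with control replicate 1 the highest of the controls. For Rad51c the log2 fold change was -0.95 (SE 0.0674, adjusted p = 2.39e-09) in B16F10 and 0.27 (SE 0.116, adjusted p = 0.0573) in 4T1, where it passed without control replicate 1 (0.41, adjusted p = 0.000295) and by DESeq2 (0.28, adjusted p = 0.0387) and lay slightly below 0, without passing, with scaling by library totals alone. The difference was -1.17 (adjusted p = 9.35e-07). Rad51d, of the same family, had 21.2, 22.6 and 19.9 CPM in B16F10 decitabine libraries, against 18.1, 18.2 and 19.1 CPM in B16F10 controls. Rad51d had 9.85, 10.9 and 10.6 CPM in 4T1 decitabine libraries, against 13.6, 12.97 and 13.5 CPM in 4T1 controls. It was higher in every treated B16F10 library and lower in every treated 4T1 library. For Rad51d the log2 fold change was 0.20 (SE 0.0771, adjusted p = 0.0442) in B16F10 and -0.35 (SE 0.0688, adjusted p = 0.000732) in 4T1, with a difference of 0.60 (adjusted p = 0.000119). Its B16F10 call was lost without decitabine replicate 1 or 2 or control replicate 1 or 2 (adjusted p = 0.0635, 0.194, 0.114 and 0.0948), with scaling by library totals alone (0.0932) and with no count filter (0.0665).

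Rad51b, also of the family and the member with the lowest level per kb of exon in both control groups, had 0.998, 0.901 and 1.52 CPM in B16F10 decitabine libraries, against 2.10, 2.10 and 2.47 CPM in B16F10 controls. Rad51b had 0.394, 0.545 and 0.396 CPM in 4T1 decitabine libraries, against 0.996, 0.710 and 0.731 CPM in 4T1 controls. Treated libraries were below controls in both lines. For Rad51b the log2 fold change was -0.97 (SE 0.257, adjusted p = 0.00521) in B16F10 and -0.86 (SE 0.248, adjusted p = 0.0086) in 4T1, and the difference was -0.06 (95% interval -0.88 to 0.75, adjusted p = 0.952). Rad54l, a motor protein of strand exchange, had 34.3, 32.6 and 32.7 CPM in B16F10 decitabine libraries, against 59.6, 61.3 and 58.8 CPM in B16F10 controls. Rad54l had 14.2, 13.2 and 14.3 CPM in 4T1 decitabine libraries, against 26.01, 25.6 and 25.97 CPM in 4T1 controls. Treated libraries were lower in both lines, and no groups overlapped. For Rad54l the log2 fold change was -0.85 (SE 0.0593, adjusted p = 1.7e-09) in B16F10 and -0.89 (SE 0.0582, adjusted p = 1.56e-07) in 4T1, and the difference of 0.09 (95% interval -0.08 to 0.26) did not pass (adjusted p = 0.381). Rad54b, its relative, had 19.7, 17.4 and 17.5 CPM in B16F10 decitabine libraries, against 28.6, 27.1 and 28.8 CPM in B16F10 controls. Rad54b had 20.6, 21.6 and 23.3 CPM in 4T1 decitabine libraries, against 24.5, 20.8 and 20.2 CPM in 4T1 controls, and there the groups overlapped. For Rad54b the log2 fold change was -0.63 (SE 0.0738, adjusted p = 1.54e-06) in B16F10 and 0.0023 (SE 0.0814, adjusted p = 0.981) in 4T1, which became -0.30 (adjusted p = 0.00694) with scaling by library totals alone, and the difference was -0.59 (adjusted p = 0.000323). Rad54b counts are uncertain, since 35.8% of its exon bases lie in the gene Fsbp on the same strand, whose own log2 fold change was -0.10 (adjusted p = 0.613) in B16F10 and -0.62 (adjusted p = 0.00301) in 4T1.

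Xrcc3, which pairs with Rad51c, had 18.01, 15.2 and 18.6 CPM in B16F10 decitabine libraries, against 16.6, 23.5 and 17.2 CPM in B16F10 controls. Xrcc3 had 7.85, 7.29 and 7.53 CPM in 4T1 decitabine libraries, against 11.1, 11.4 and 11.03 CPM in 4T1 controls. The B16F10 groups overlapped, with control replicate 2 the highest, and the 4T1 groups were apart. For Xrcc3 the log2 fold change was -0.15 (SE 0.133, adjusted p = 0.424) in B16F10 and -0.56 (SE 0.0712, adjusted p = 2.97e-05) in 4T1. The difference of 0.46 (adjusted p = 0.0249) was lost without 4T1 decitabine replicate 2, B16F10 decitabine replicate 1 or 3, or B16F10 control replicate 1 or 3 (adjusted p = 0.0540, 0.0506, 0.0578, 0.0620 and 0.0615) and with upper-quartile scaling (0.102). Xrcc2, the remaining member of the family, fell by 0.42 (adjusted p = 0.00117) in B16F10 and by 0.55 (adjusted p = 2.71e-05) in 4T1 on the log2 scale. Its difference was 0.18 (95% interval -0.07 to 0.43, adjusted p = 0.233).

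**Figure D3:**
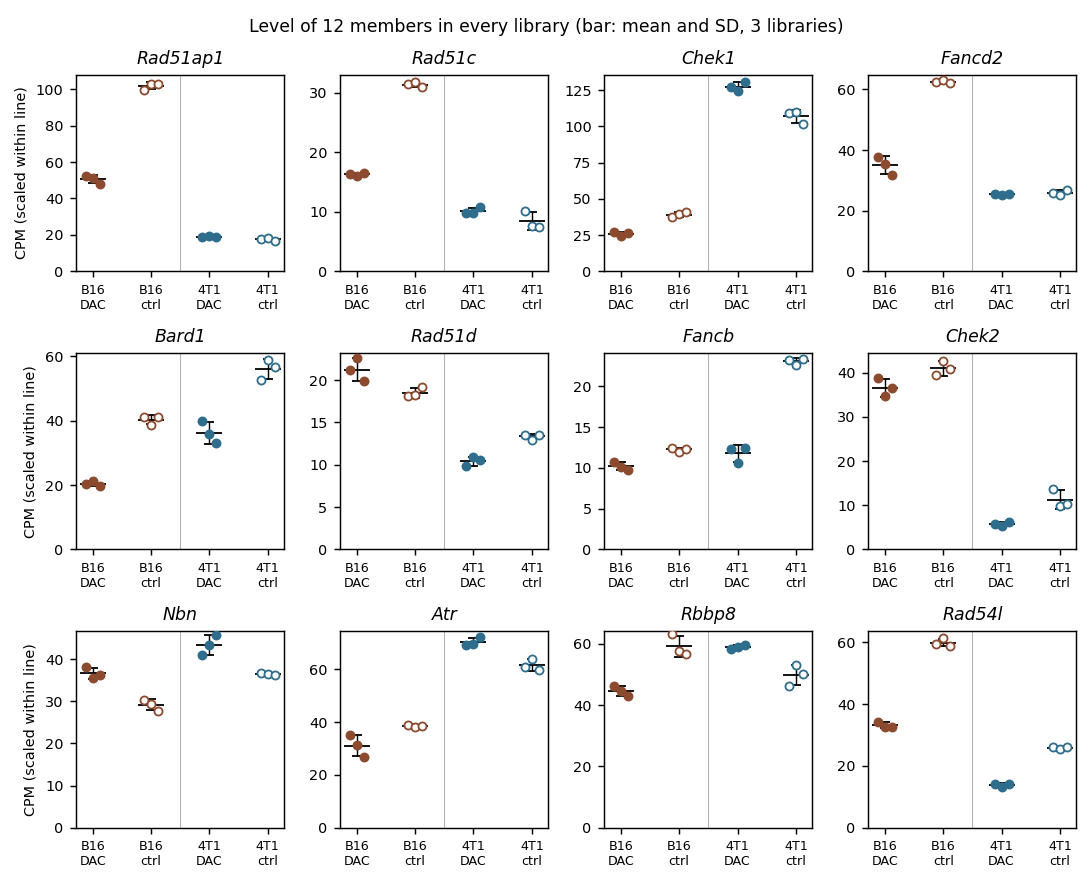
CPM of 12 members in every library, scaled within each line, with decitabine libraries filled and controls open; bars are the mean and SD of 3 libraries. Rad51ap1 and Rad51c are lower in every treated B16F10 library, and Chek1, Atr and Rbbp8 are lower in treated B16F10 and higher in treated 4T1 libraries; with scaling by library totals alone those 4T1 log2 changes are -0.11 to -0.048. Rad54l is lower in all treated libraries of both lines.

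Of the 8 core complex genes, 7 fell in B16F10 and 6 in 4T1, and the others did not pass. The share of all genes that fell was 19.8% in B16F10 and 36.1% in 4T1. Fancb, the core subunit encoded on the X chromosome (ENSMUSG00000047757, mm10 chromosome X, 164980592 to 164997272, plus strand), had 10.7, 10.1 and 9.79 CPM in B16F10 decitabine libraries, against 12.4, 11.99 and 12.3 CPM in B16F10 controls. Fancb had 12.3, 10.6 and 12.4 CPM in 4T1 decitabine libraries, against 23.2, 22.6 and 23.3 CPM in 4T1 controls. Treated libraries were lower in both lines, by little in B16F10 and by much in 4T1. For Fancb the log2 fold change was -0.26 (SE 0.098, adjusted p = 0.0386) in B16F10 and -0.97 (SE 0.0716, adjusted p = 4.14e-07) in 4T1, with a difference of 0.75 (adjusted p = 1.68e-05). The B16F10 call was lost without decitabine replicate 2 or 3 or control replicate 1, 2 or 3 (adjusted p = 0.0959, 0.129, 0.0858, 0.0691 and 0.0878), with upper-quartile scaling (0.0633) and with no count filter (0.0610). Fancc, another core subunit, had 15.4, 14.9 and 15.5 CPM in B16F10 decitabine libraries, against 20.4, 20.6 and 20.6 CPM in B16F10 controls. Fancc had 3.99, 4.20 and 3.34 CPM in 4T1 decitabine libraries, against 7.44, 6.34 and 7.50 CPM in 4T1 controls. No groups overlapped, and the relative drop was the larger in 4T1. For Fancc the log2 fold change was -0.42 (SE 0.0776, adjusted p = 0.000219) in B16F10 and -0.89 (SE 0.115, adjusted p = 3.46e-05) in 4T1, with a difference of 0.51 (adjusted p = 0.00382).

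Fanca, the core subunit that binds Fancg, had 35.1, 32.95 and 33.9 CPM in B16F10 decitabine libraries, against 49.5, 55.99 and 55.5 CPM in B16F10 controls. Fanca had 46.3, 46.3 and 47.9 CPM in 4T1 decitabine libraries, against 50.1, 51.9 and 52.9 CPM in 4T1 controls. Treated libraries were lower throughout, with a gap in 4T1 close to the spread within its groups. For Fanca the log2 fold change was -0.66 (SE 0.0646, adjusted p = 1.63e-07) in B16F10 and -0.14 (SE 0.0446, adjusted p = 0.0137) in 4T1, and the 4T1 call was lost without decitabine replicate 2 (adjusted p = 0.0538) and with upper-quartile scaling (0.714). Its difference was -0.47 (adjusted p = 0.000118). Fancm, a translocase that anchors the core complex to DNA, had 33.2, 28.3 and 30.7 CPM in B16F10 decitabine libraries, against 41.6, 39.1 and 41.01 CPM in B16F10 controls. Fancm had 19.7, 20.1 and 22.2 CPM in 4T1 decitabine libraries, against 23.1, 20.9 and 21.05 CPM in 4T1 controls, and the 4T1 groups overlapped. For Fancm the log2 fold change was -0.40 (SE 0.068, adjusted p = 0.000104) in B16F10 and -0.07 (SE 0.0677, adjusted p = 0.399) in 4T1, where it was -0.36 (adjusted p = 0.000519) with scaling by library totals alone. The difference of -0.29 (adjusted p = 0.025) was lost without 4T1 decitabine replicate 3, 4T1 control replicate 2 or 3, B16F10 decitabine replicate 2, or B16F10 control replicate 1 or 3 (adjusted p = 0.0858, 0.0778, 0.0672, 0.0787, 0.0582 and 0.0592). Fancf, Fancg and Fancl, the last being the ring finger subunit that carries the ligase activity, fell in both lines by 0.41 to 0.61 in B16F10 and by 0.60 to 0.62 in 4T1 on the log2 scale. Their levels ran from 5.67 to 14.04 CPM in B16F10 decitabine libraries against 7.51 to 20.4 CPM in B16F10 controls, and from 2.88 to 20.01 CPM in 4T1 decitabine libraries against 4.38 to 32.1 CPM in 4T1 controls. Fance, which contacts Fancd2, had a log2 fold change of 0.0092 (adjusted p = 0.955) in B16F10 and -0.11 (adjusted p = 0.142) in 4T1, where it passed without control replicate 1 (-0.16, adjusted p = 0.0252) and with scaling by library totals alone (-0.40, adjusted p = 9.66e-05).

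The 4 genes of Fancd2 and Fanci ubiquitination all fell in B16F10, and 3 of them fell in 4T1. Against that, 19.8% of all genes fell in B16F10 and 36.1% in 4T1. Fancd2, which with Fanci is the substrate of the core complex (ENSMUSG00000034023, mm10 chromosome 6, 113531682 to 113597017, plus strand), had 37.7, 35.4 and 31.8 CPM in B16F10 decitabine libraries, against 62.5, 63.00 and 62.1 CPM in B16F10 controls. Fancd2 had 25.4, 25.3 and 25.6 CPM in 4T1 decitabine libraries, against 25.7, 25.03 and 26.9 CPM in 4T1 controls. All treated B16F10 libraries were well under their controls, and the 4T1 groups overlapped. For Fancd2 the log2 fold change was -0.84 (SE 0.067, adjusted p = 1.11e-08) in B16F10, -0.02 (SE 0.053, adjusted p = 0.695) in 4T1 and -0.77 for the difference (adjusted p = 1.32e-06). With scaling by library totals alone, the 4T1 value was -0.32 (adjusted p = 0.000206). Fanci, its partner, had 37.4, 35.6 and 35.7 CPM in B16F10 decitabine libraries, against 58.8, 56.6 and 54.2 CPM in B16F10 controls. Fanci had 13.02, 12.4 and 13.6 CPM in 4T1 decitabine libraries, against 15.97, 16.1 and 15.7 CPM in 4T1 controls. The groups were apart in both lines. For Fanci the log2 fold change was -0.64 (SE 0.0607, adjusted p = 9.89e-08) in B16F10 and -0.29 (SE 0.0633, adjusted p = 0.00156) in 4T1, with a difference of -0.31 (adjusted p = 0.00589). Ube2t, the conjugating enzyme of the core complex, had 22.5, 20.9 and 23.1 CPM in B16F10 decitabine libraries, against 34.3, 34.1 and 34.8 CPM in B16F10 controls. Ube2t had 12.2, 13.2 and 12.1 CPM in 4T1 decitabine libraries, against 16.4, 13.7 and 14.1 CPM in 4T1 controls. It was lower in all treated libraries, but in 4T1 the highest treated library nearly met the lowest control. For Ube2t the log2 fold change was -0.64 (SE 0.0652, adjusted p = 2.93e-07) in B16F10 and -0.23 (SE 0.0828, adjusted p = 0.0237) in 4T1, with a difference of -0.36 (adjusted p = 0.00911). Its 4T1 call was lost without decitabine replicate 1 (adjusted p = 0.0688) or 3 (0.0792) and with upper-quartile scaling (0.240). Usp1, the deubiquitinase, fell by 0.43 (adjusted p = 2.05e-06) in B16F10 and by 0.38 (adjusted p = 9.94e-05) in 4T1, and its difference was -0.008 (95% interval -0.17 to 0.16, adjusted p = 0.988). Usp1 counts are uncertain because 31.6% of its 31-base words also occur in other annotated genes, of which Gm5841 shares the most.

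Among the 7 helicases and nucleases, 5 fell in each line, 2 rose in 4T1 and 2 did not pass in B16F10. Over all genes, 19.8% fell in B16F10, and 36.1% fell and 39.2% rose in 4T1. Brip1, a helicase that binds Brca1, had 45.6, 43.8 and 41.2 CPM in B16F10 decitabine libraries, against 84.02, 71.8 and 72.8 CPM in B16F10 controls. Brip1 had 34.8, 35.05 and 34.9 CPM in 4T1 decitabine libraries, against 41.7, 46.00 and 43.8 CPM in 4T1 controls. Both lines showed separate groups. For Brip1 the log2 fold change was -0.81 (SE 0.0706, adjusted p = 3.63e-08) in B16F10 and -0.33 (SE 0.0507, adjusted p = 0.000133) in 4T1, with a difference of -0.43 (adjusted p = 0.000715). Rbbp8, the resection factor CtIP, had 46.2, 44.5 and 43.02 CPM in B16F10 decitabine libraries, against 63.2, 57.8 and 56.6 CPM in B16F10 controls. Rbbp8 had 58.3, 58.9 and 59.6 CPM in 4T1 decitabine libraries, against 46.3, 52.95 and 50.1 CPM in 4T1 controls. Treated libraries were all lower in B16F10 and all higher in 4T1. For Rbbp8 the log2 fold change was -0.41 (SE 0.0636, adjusted p = 4.09e-05) in B16F10, and in 4T1 it was 0.24 (SE 0.053, adjusted p = 0.00156), which became -0.055 (adjusted p = 0.339) with scaling by library totals alone. Its difference was -0.61 (adjusted p = 1e-05). Eme1, the partner of the nuclease Mus81, had 15.7, 17.2 and 16.9 CPM in B16F10 decitabine libraries, against 28.4, 25.5 and 25.6 CPM in B16F10 controls. Eme1 had 15.9, 16.4 and 17.4 CPM in 4T1 decitabine libraries, against 21.3, 20.4 and 20.9 CPM in 4T1 controls. Each line had treated libraries below controls without overlap. For Eme1 the log2 fold change was -0.67 (SE 0.0758, adjusted p = 9.26e-07) in B16F10 and -0.33 (SE 0.0602, adjusted p = 0.000434) in 4T1. The difference of -0.30 (adjusted p = 0.0179) was lost without 4T1 decitabine replicate 3, 4T1 control replicate 2 or B16F10 control replicate 1 (adjusted p = 0.0597, 0.0527 and 0.0616) and with no count filter (0.0624).

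Mus81, which with Eme1 cuts branched DNA, had 17.4, 19.6 and 20.03 CPM in B16F10 decitabine libraries, against 19.7, 20.5 and 23.1 CPM in B16F10 controls. Mus81 had 17.3, 16.8 and 20.1 CPM in 4T1 decitabine libraries, against 16.3, 12.4 and 13.6 CPM in 4T1 controls. The B16F10 groups overlapped, and in 4T1 the treated libraries lay just above the highest control. For Mus81 the log2 fold change was -0.15 (SE 0.0844, adjusted p = 0.16) in B16F10 and 0.36 (SE 0.106, adjusted p = 0.0108) in 4T1, where the call was lost without decitabine replicate 3 (adjusted p = 0.0520) and with scaling by library totals alone (0.06, adjusted p = 0.619). The difference was -0.47 (adjusted p = 0.0113). Blm, the helicase mutated in Bloom syndrome, fell by 0.60 (adjusted p = 4.37e-07) in B16F10 and 0.70 (adjusted p = 2.17e-06) in 4T1, and its difference of 0.14 (95% interval -0.05 to 0.34) did not pass (adjusted p = 0.222, and 0.0302 without 4T1 control replicate 1). Exo1, a resection exonuclease, fell by 0.31 (adjusted p = 0.000619) and 0.30 (adjusted p = 0.00014) in B16F10 and 4T1, with a difference of 0.04 (95% interval -0.13 to 0.20). Slx4, the scaffold of structure-specific nucleases, had a log2 fold change of -0.03 (adjusted p = 0.791) in B16F10 and fell by 0.24 in 4T1 (adjusted p = 0.00949, and 0.159 with upper-quartile scaling). Its difference of 0.25 (95% interval 0.03 to 0.48, adjusted p = 0.0531) passed without 4T1 decitabine replicate 3, 4T1 control replicate 2, B16F10 decitabine replicate 1 or B16F10 control replicate 2 (adjusted p = 0.0149, 0.0403, 0.0312 and 0.0296).

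Of the 8 genes of break sensing and checkpoint, 4 fell and 1 rose in B16F10, and 3 fell and 4 rose in 4T1. Among all genes tested, 19.8% fell and 21.4% rose in B16F10, and 36.1% fell and 39.2% rose in 4T1. The 4T1 counts of this role were near those shares. Nbn, a subunit of the break-sensing complex (ENSMUSG00000028224, mm10 chromosome 4, 15957925 to 15992589, plus strand), had 38.1, 35.6 and 36.2 CPM in B16F10 decitabine libraries, against 30.3, 29.5 and 27.8 CPM in B16F10 controls. Nbn had 40.9, 43.4 and 45.8 CPM in 4T1 decitabine libraries, against 36.7, 36.5 and 36.2 CPM in 4T1 controls. It was higher in every treated library of both lines. For Nbn the log2 fold change was 0.33 (SE 0.0634, adjusted p = 0.000369) in B16F10, and in 4T1 0.25 (SE 0.0523, adjusted p = 0.0011), which became -0.046 (adjusted p = 0.446) with scaling by library totals alone. The difference for Nbn was 0.12 (95% interval -0.06 to 0.30, adjusted p = 0.253). Rad50 fell by 0.24 (adjusted p = 0.0028) in B16F10 and 0.25 (adjusted p = 0.000118) in 4T1, and Mre11a had log2 fold changes of -0.10 (adjusted p = 0.211) and -0.03 (adjusted p = 0.592), -0.33 in 4T1 (adjusted p = 4.15e-05) with scaling by library totals alone. Levels of Mre11a ran from 34.5 to 36.7 CPM in B16F10 decitabine libraries against 36.7 to 39.2 CPM in B16F10 controls, and from 98.01 to 108 CPM in 4T1 decitabine libraries against 102 to 107 CPM in 4T1 controls. H2afx, the histone variant marked at breaks, fell by 0.67 (adjusted p = 1.07e-06) in B16F10 and 0.78 (adjusted p = 1.4e-07) in 4T1. It ran from 40.9 to 49.8 CPM in B16F10 decitabine libraries against 70.1 to 77.4 CPM in B16F10 controls, and from 51.1 to 54.7 CPM in 4T1 decitabine libraries against 87.9 to 96.8 CPM in 4T1 controls. The difference for H2afx was 0.15 (adjusted p = 0.196, and 0.0156 without B16F10 decitabine replicate 1).

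Chek1, the kinase that Atr activates (ENSMUSG00000032113, mm10 chromosome 9, 36708482 to 36727065, minus strand), had 27.04, 24.1 and 26.2 CPM in B16F10 decitabine libraries, against 37.4, 39.5 and 40.6 CPM in B16F10 controls. Chek1 had 127, 124 and 131 CPM in 4T1 decitabine libraries, against 109, 110.0 and 102 CPM in 4T1 controls. All treated libraries were lower in B16F10 and higher in 4T1. For Chek1 the log2 fold change was -0.60 (SE 0.0659, adjusted p = 6.57e-07) in B16F10, and in 4T1 0.25 (SE 0.0439, adjusted p = 0.000338), which became -0.048 (adjusted p = 0.329) with scaling by library totals alone. The difference was -0.81 (adjusted p = 1.22e-07). Atr, the replication stress kinase, had 34.9, 31.4 and 26.9 CPM in B16F10 decitabine libraries, against 38.9, 37.95 and 38.5 CPM in B16F10 controls. Atr had 69.2, 69.6 and 72.2 CPM in 4T1 decitabine libraries, against 60.8, 63.99 and 59.8 CPM in 4T1 controls. It moved as Chek1 did, with treated libraries lower in B16F10 and higher in 4T1 and no overlap. For Atr the log2 fold change was -0.31 (SE 0.0786, adjusted p = 0.00456) in B16F10, and in 4T1 0.19 (SE 0.0441, adjusted p = 0.0021), which became -0.11 (adjusted p = 0.0436) with scaling by library totals alone and 0.14 (adjusted p = 0.0799) in a fit of all 12 libraries. The difference was -0.45 (adjusted p = 0.00109). Atm, the break kinase, had a log2 fold change of -0.07 (adjusted p = 0.547) in B16F10 and 0.15 (adjusted p = 0.0185) in 4T1. The 4T1 call was lost without decitabine replicate 1 or 2 or control replicate 2 (adjusted p = 0.0656, 0.0573 and 0.102), with no count filter (0.243) and in a fit of all 12 libraries (0.297), and with scaling by library totals alone its value was -0.15 (adjusted p = 0.0171). Chek2, the kinase that Atm activates (ENSMUSG00000029521, mm10 chromosome 5, 110839979 to 110874145, plus strand), had 38.7, 34.7 and 36.5 CPM in B16F10 decitabine libraries, against 39.5, 42.7 and 40.7 CPM in B16F10 controls. Chek2 had 5.82, 5.25 and 6.29 CPM in 4T1 decitabine libraries, against 13.8, 9.75 and 10.3 CPM in 4T1 controls. Treated libraries were lower in both lines, and in 4T1 by a wide margin with control replicate 1 the highest. For Chek2 the log2 fold change was -0.16 (SE 0.0639, adjusted p = 0.0517, and 0.0277 without B16F10 decitabine replicate 1) in B16F10 and -0.96 (SE 0.135, adjusted p = 9.57e-05) in 4T1, with a difference of 0.84 (adjusted p = 0.000121).

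Without the drug these transcripts differed between the lines about as often as all genes did, with 79.5% of the members called. Of the 39 genes, 17 were higher and 14 lower in B16F10 controls than in 4T1 controls, and 8 did not pass, where 77.9% of 17127 genes were called, 37.9% as higher and 40% as lower (edgeR, fit of all 12 libraries). The control libraries of the lines did not overlap for 18 members that were higher and 13 that were lower in B16F10, against 78.7% of all genes apart in either direction. Levels between genes are compared as CPM per kb of exon. H2afx was the most abundant member in both lines, with 47.2, 52.2 and 51.02 in B16F10 controls and 75.7, 69.4 and 71.1 in 4T1 controls, followed by Usp1. Rad51b was the least abundant, with 0.522, 0.521 and 0.618 in B16F10 controls and 0.287, 0.207 and 0.213 in 4T1 controls. Rad51ap1 had 19.3, 19.97 and 20.1 CPM per kb in B16F10 controls, against 4.02, 4.11 and 3.73 in 4T1 controls, and was rank 4 of the members in B16F10 and rank 26 in 4T1. The log2 ratio of B16F10 over 4T1 was 2.32 for Rad51ap1 (adjusted p = 2.98e-17), the highest of the 39. It was 1.77 for Fancg (adjusted p = 5.49e-12), 1.68 for Rad51c (adjusted p = 7.61e-12), 1.64 for Chek2 (adjusted p = 4.83e-11) and 1.61 for Fanci (adjusted p = 1.74e-14).

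Lower in B16F10 were Mre11a and Chek1 first. Mre11a had 5.77, 6.17 and 5.94 CPM per kb in B16F10 controls, against 18.6, 19.7 and 19.7 in 4T1 controls (log2 ratio -1.70, adjusted p = 8.95e-16). Chek1 had 7.53, 7.96 and 8.22 CPM per kb in B16F10 controls, against 25.5, 25.9 and 24.1 in 4T1 controls (log2 ratio -1.67, adjusted p = 2.76e-15). Fancb followed with a log2 ratio of -1.13 (adjusted p = 1.21e-10) and Atr with -0.90 (adjusted p = 1.22e-09). All the strand exchange genes but Rad54b were higher in B16F10, where Rad54b had a log2 ratio of 0.15 (adjusted p = 0.106, and 0.0257 without 4T1 control replicate 1). Of the 8 break sensing and checkpoint genes 5 were lower in B16F10, and Chek2 alone was higher. Over all genes, 40% were lower and 37.9% higher in B16F10. Some of the members' calls rested on single libraries. Mus81 (0.36) and Rad51d (0.25) were lost without 4T1 control replicate 2 (adjusted p = 0.0547 and 0.0549) or B16F10 control replicate 3 (0.0533 and 0.0582). Xrcc2 (0.23) was lost without B16F10 control replicate 2 or 3 or 4T1 control replicate 1 or 2 (adjusted p = 0.199, 0.0635, 0.0819 and 0.115). It was also lost by DESeq2 (adjusted p = 0.0675) and with no count filter (0.0630). With scaling by library totals alone, Fanca (-0.17) and Blm (-0.19) no longer passed (adjusted p = 0.245 and 0.144). In that scaling Rad54b (0.23, adjusted p = 0.0189) and Eme1 (0.20, adjusted p = 0.0102) passed as higher in B16F10. Rad50 and Slx4 passed only without B16F10 control replicate 1 (-0.13, adjusted p = 0.0342) and B16F10 control replicate 2 (-0.18, adjusted p = 0.0490), among the fits that left out a library. Rad50 also passed by DESeq2 with all libraries (-0.12, adjusted p = 0.0246).

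**Figure D4:**
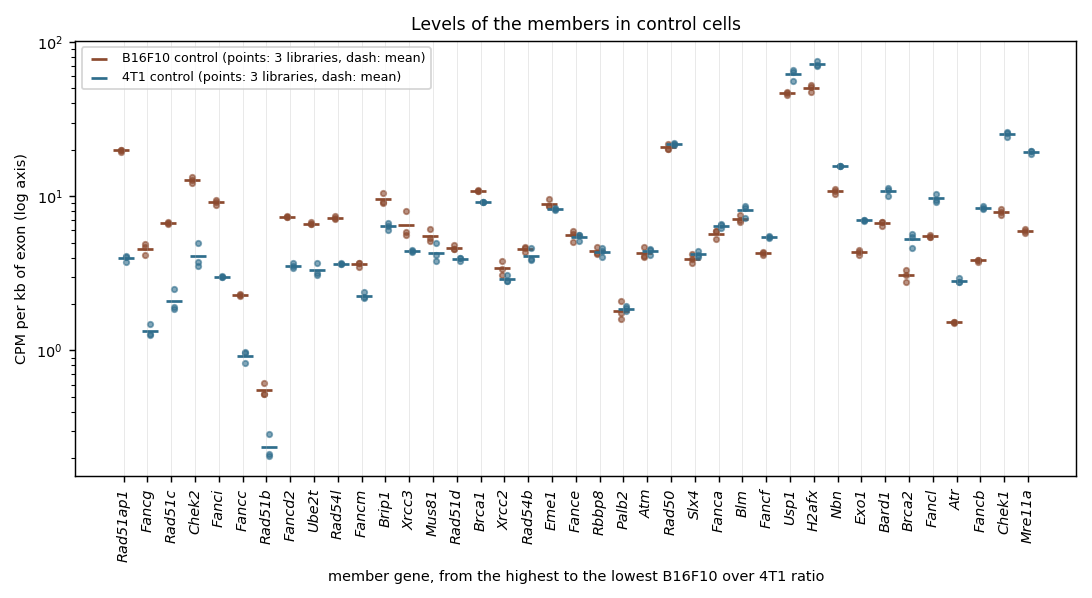
Level of each member in control cells, in CPM per kb of exon on a log axis, for B16F10 and 4T1, ordered by the ratio of B16F10 over 4T1. Points are 3 libraries and dashes their mean. Rad51ap1 stands at the left end with a log2 ratio of 2.32 and Mre11a at the right end with -1.70.

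Other genes of the same pathways, 64 tested of a list of 66, were also described. In B16F10 35 were lower and 5 higher with a median log2 fold change of -0.22, and in 4T1 29 were lower and 16 higher with a median of -0.13, where 41.2% of all genes were called in B16F10 and 75.3% in 4T1. In B16F10 the smallest adjusted p among the lower ones belonged to Mdc1, a checkpoint mediator (-0.68, adjusted p = 1.27e-07), the fork protein Timeless (-0.60, adjusted p = 1.27e-07) and the fork remodeller Zranb3 (-0.83, adjusted p = 1.66e-07). The higher ones were led by Mcm9 (0.65, adjusted p = 0.000234), Mnd1 (0.54, adjusted p = 0.00284) and Sfr1 (0.17, adjusted p = 0.0265), and the last was lost without B16F10 decitabine replicate 2 or 3 or control replicate 2 or 3 (adjusted p = 0.136, 0.0784, 0.134 and 0.0720) and with scaling by library totals alone (0.0542). In 4T1 the lower ones were led by the nuclease Dna2 (-1.52, adjusted p = 8.83e-09), Mnd1, a partner in meiotic strand exchange (-1.998, adjusted p = 1.38e-08), and the helicase Wrn (-0.96, adjusted p = 3.61e-08). The higher ones there were led by Rad52 (0.83, adjusted p = 1.32e-06), Rmi1 (0.63, adjusted p = 2.02e-06) and Faap24 (0.62, adjusted p = 2.72e-06).

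Genes that mark dividing cells and the p53 response were counted in the same way, against 41.2% of all genes called in B16F10 (19.8% lower and 21.4% higher) and 75.3% in 4T1 (36.1% lower and 39.2% higher). Of 41 replication genes 37 were lower and 1 higher in B16F10 (median -0.50), and 20 were lower and 11 higher in 4T1 (median -0.11). Their summed level was 3483 to 3621 CPM in B16F10 decitabine libraries against 4923 to 5009 CPM in B16F10 controls, and 4463 to 4791 CPM in 4T1 decitabine libraries against 5012 to 5469 CPM in 4T1 controls. Of 28 mitosis genes 20 were lower and 1 higher in B16F10 (median -0.33), and 17 were lower and 4 higher in 4T1 (median -0.18). Their sum was 3756 to 4034 CPM in B16F10 decitabine libraries against 4802 to 5139 CPM in B16F10 controls, and 6576 to 6656 CPM in 4T1 decitabine libraries against 7432 to 8073 CPM in 4T1 controls. The list of 25 genes of the p53 response held p53 targets and Trp53 itself, which rose by 1.14 on the log2 scale in 4T1. Of these genes, 18 were higher and 1 lower among 23 tested in B16F10 (median 1.27). In 4T1 15 were higher and 5 lower among 24 tested (median 0.58). Their sum was 4242 to 4354 CPM in B16F10 decitabine libraries against 2139 to 2228 CPM in B16F10 controls, and 1039.9 to 1059.9 CPM in 4T1 decitabine libraries against 823 to 841 CPM in 4T1 controls. The part of these lists in the fall of the repair genes was not tested.

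**Figure D5:**
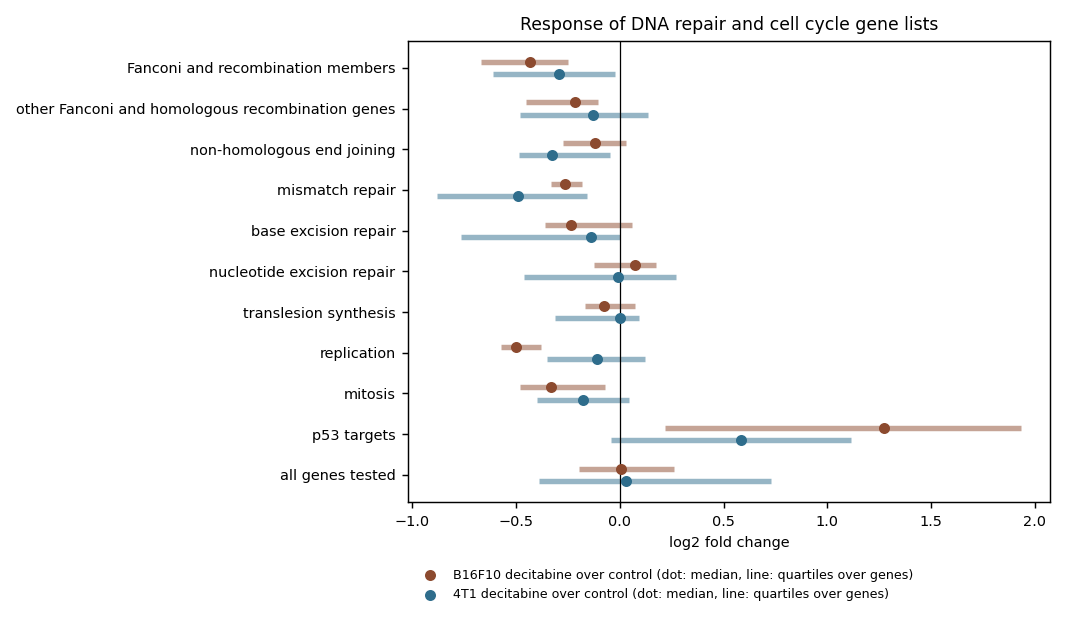
Median log2 fold change (dot) and quartiles over genes (line) of gene lists of DNA repair and the cell cycle, decitabine over control, in B16F10 above 4T1. The Fanconi and recombination members had medians of -0.43 in B16F10 and -0.30 in 4T1, replication genes -0.50 and -0.11, and all genes tested 0.0030 and 0.03. Scaling by library totals alone moved the median of all genes in 4T1 to -0.27, and upper-quartile scaling moved it to 0.15.

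Summed levels of immediate early and heat shock genes also differed with decitabine, as did those of fibroblast and leukocyte markers. Endothelial sums differed in 4T1 alone and overlapped in B16F10. The 13 immediate early and heat shock genes summed to 333 to 361 CPM in B16F10 decitabine libraries against 254 to 255 CPM in B16F10 controls, and to 2670 to 3245 CPM in 4T1 decitabine libraries against 676 to 1103 CPM in 4T1 controls. The 10 fibroblast markers summed to 71.1 to 78.6 CPM in B16F10 decitabine libraries against 57.4 to 61.2 CPM in B16F10 controls, and to 62.1 to 68.7 CPM in 4T1 decitabine libraries against 33.7 to 36.0 CPM in 4T1 controls. In 4T1 Postn averaged 41.5 CPM with decitabine and 23.6 CPM in controls, and Col1a1 10.1 and 0.63 CPM. Pdgfra went the other way there, with 5.14 CPM against 10.2 CPM in controls. The 10 leukocyte markers summed to 136 to 174 CPM in B16F10 decitabine libraries against 92.9 to 97.2 CPM in B16F10 controls, and to 23.9 to 25.5 CPM in 4T1 decitabine libraries against 3.37 to 4.31 CPM in 4T1 controls. Of the 10 leukocyte markers 4 were at 0 counts in B16F10 decitabine libraries and 4 in B16F10 controls, and 2 in 4T1 decitabine libraries and 4 in 4T1 controls. Most of the B16F10 sum was Cd68, at 156 CPM in decitabine and 92.98 CPM in control libraries, while Adgre1 was at 0 counts in all 12 libraries and Ptprc averaged 0.0985 CPM in B16F10 decitabine and 1.21 CPM in 4T1 decitabine libraries. Most of the 4T1 decitabine sum was Csf1r, at 13.1 CPM against 1.00 CPM in controls, and Cd68, at 8.64 CPM against 2.75 CPM. The 6 endothelial markers summed to 19.4 to 20.3 CPM in B16F10 decitabine libraries against 18.6 to 21.3 CPM in B16F10 controls, and to 23.1 to 46.8 CPM in 4T1 decitabine libraries against 11.4 to 16.8 CPM in 4T1 controls. The part of these lists in the members' changes was not tested.

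Some members share exon bases with a gene on the opposite strand, and the sources used here do not give the strand setting of the counting. Overlaps above 10% of exon bases were found for Fancc with Gm16133 (16.4%), Fanci with Polg (15.95%), Rad54l with Lrrc41 (15.4%), Fancf with Gas2 (14.96%), Fancl with Vrk2 (13.7%), Fanca with Zfp276 (10.5%), H2afx with Gm44335 (10.2%) and Eme1 with Lrrc59 and Mrpl27 together (10.7%). Reads of such pairs cannot be told apart without strand. Polg had log2 fold changes of -0.18 (adjusted p = 0.0237) in B16F10 and -0.35 (adjusted p = 7.36e-05) in 4T1, and Gas2 of -0.77 (adjusted p = 0.000133) and -0.60 (adjusted p = 0.000335). Lrrc41 did not pass in either line (-0.07, adjusted p = 0.402 in B16F10 and 0.06, adjusted p = 0.260 in 4T1), nor did Zfp276 (0.17, adjusted p = 0.0733 and -0.04, adjusted p = 0.732), while Vrk2 fell in B16F10 (-0.35, adjusted p = 0.00598) and not in 4T1 with a passing test (-0.08, adjusted p = 0.177). Lrrc59 averaged 451 CPM in B16F10 decitabine libraries against 388 CPM in B16F10 controls, with log2 fold changes of 0.22 (adjusted p = 0.00297) in B16F10 and 0.07 (adjusted p = 0.233) in 4T1, and Mrpl27 did not pass in either line (-0.07, adjusted p = 0.445 and -0.06, adjusted p = 0.420).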

How the data were processed

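Values are estimated counts of each gene in each library as the authors deposited them, unscaled between libraries; RSEM, edgeR and the mm10 build are named, without roles, per the submitters' processing notes. The sources used here do not give the aligner, annotation, strand setting or tool versions, and the labels name more than one sequencing instrument without tying them to libraries. Counts were rounded to whole numbers. Genes were filtered with edgeR's filterByExpr, scaled with TMM factors and tested with edgeR 4.0.16 (R 4.3.3), robust quasi-likelihood, each line in a fit of its own 6 libraries; the difference between lines and the control lines came from a fit of all 12. P-values were adjusted by Benjamini-Hochberg over all genes tested, with a threshold of 0.05. The members and lists were chosen with earlier results of these data known. Values in every library are printed for members called in the difference, for the 3 largest called changes in each direction in each line and for members called in opposite directions; genes of other lists are named by smallest adjusted p, and some genes so chosen are not reported here. CPM per kb used exon bases of the GENCODE annotation, matched by identifier for 46005 of 46517 genes. Depth was 48197936 to 76042600 counts a library, so that 3 counts were 0.0395 to 0.0622 CPM; this floor covers counting error only. Libraries of a group differed by more than sampling noise (smallest chi-square per degree of freedom 6.15). The tests were run first on simulated data. Alternatives were DESeq2 1.42.0, limma-voom (limma 3.58.1), other scalings, no filter, a replicate block, other sets of libraries and leaving out each library; library totals without the most counted genes were added after seeing the data.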

Additional observations from a re-analysis of the deposited data

Results flagged for a closer look

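The response to decitabine differed between the lines by the test of the difference itself for 21 of the 39 repair genes (edgeR's quasi-likelihood test in one fit of all 12 libraries). Of all 17127 genes tested, 49.8% were called, 20.9% as lower and 28.9% as higher. The members' share called in either direction, 53.8%, was near that of all genes. With scaling by library totals alone 9 of the 21 calls were lost, while other members gained a call. The 9 were Bard1, Palb2, Fancm, Ube2t, Fanci, Brip1, Eme1, Mus81 and Atr. Values are the response in B16F10 minus that in 4T1 on the log2 scale, with 95% intervals. They come from the fit of all 12 libraries with its own scaling, and so differ somewhat from the within-line values subtracted. The response was lower in B16F10 for Rad51c at -1.17 (-1.45 to -0.89), Rad51ap1 at -1.09 (-1.26 to -0.93), Chek1 at -0.81 (-0.97 to -0.64), Fancd2 at -0.77 (-0.96 to -0.58), Rbbp8 at -0.61 (-0.78 to -0.43), Rad54b at -0.59 (-0.82 to -0.35), Fanca at -0.47 (-0.64 to -0.30) and Mus81 at -0.47 (-0.77 to -0.17). It was also lower there for Atr at -0.45 (-0.66 to -0.24), Brip1 at -0.43 (-0.63 to -0.24), Palb2 at -0.43 (-0.72 to -0.13), Ube2t at -0.36 (-0.58 to -0.13), Fanci at -0.31 (-0.49 to -0.13), Bard1 at -0.30 (-0.51 to -0.09), Eme1 at -0.30 (-0.50 to -0.09) and Fancm at -0.29 (-0.50 to -0.07). The response was higher in B16F10 for Chek2 at 0.84 (0.53 to 1.15), Fancb at 0.75 (0.52 to 0.98), Rad51d at 0.60 (0.38 to 0.82), Fancc at 0.51 (0.23 to 0.79) and Xrcc3 at 0.46 (0.12 to 0.80). The lines had different doses, so line and dose cannot be told apart in these values.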

How the results depend on the processing

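With libraries scaled by their totals alone, 1 member was higher in B16F10, 0 were higher in 4T1, and the difference between the lines had 7 members lower and 20 higher. In the same scaling the 4T1 log2 fold changes of members that passed in either scaling changed sign for Rad51ap1 (-0.17), Rad54b (-0.30), Rbbp8 (-0.055), Nbn (-0.046), Atm (-0.15), Atr (-0.11) and Chek1 (-0.048), and the difference changed sign for Usp1 (0.22) and Mre11a (0.20). Among members that passed in neither scaling, 1 more changed sign in 4T1, Rad51c, and 3 more for the difference, Brca2, Rad51b and Atm. The median of all genes in 4T1 was -0.27 under that scaling, and the cause of the shift was not tested. With upper-quartile scaling that median was 0.15. The lower 4T1 calls of Palb2, Fanca, Ube2t and Slx4 were then lost, and Rad51ap1 and Rad51c passed as higher. The count of members higher in B16F10 was also 1 with no count filter and with the replicate number as a block, and 1 to 2 when single libraries were left out. The next ranges cover leaving out single libraries and also scaling by library totals without the most counted genes. They were 29 to 31 members lower in B16F10, and 23 to 27 lower and 5 to 8 higher in 4T1. For the difference they were 13 to 16 lower and 4 to 6 higher. For control B16F10 over control 4T1 they were 11 to 15 lower and 14 to 20 higher. The values 23 and 8 in 4T1, and 11 and 20 for the control lines, came from that scaling and not from a left-out library. The replicate numbers did not pair the samples: same-numbered libraries had correlations of deviations of -0.25, -0.22 and -0.03 in B16F10 and -0.16, 0.10 and -0.13 in 4T1. With the replicate block, 29 members were lower in B16F10 and 26 lower and 6 higher in 4T1. With that block Rad51d (adjusted p = 0.0674) and Fancb (0.0579) did not pass in B16F10, Xrcc3 (0.0590) did not pass for the difference, and Slx4 (0.0497) passed for the difference. Rad51b, with 0.394 to 2.47 CPM, was the member with the fewest counts.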

Other observations

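Other DNA repair pathways were also measured, and 41.2% of all genes were called in B16F10 and 75.3% in 4T1. Of 15 end joining genes tested, 6 were lower in B16F10 (median log2 fold change -0.12), and 8 were lower and 3 higher in 4T1 (median -0.33). The polymerase Polq fell in B16F10 (-0.74, adjusted p = 1.10e-07), and the ligase Lig3 fell in 4T1 (-1.21, adjusted p = 8.64e-09). Mismatch repair had 3 lower and 0 higher of 7 genes tested in B16F10 (median -0.27), and 5 lower and 1 higher in 4T1 (median -0.49).

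Base excision repair had 8 lower and 3 higher of 17 genes tested in B16F10 (median -0.24), and 8 lower and 2 higher of 16 in 4T1 (median -0.14). The glycosylase Neil3 fell by 1.04 in B16F10 (adjusted p = 1.65e-09) and by 1.14 in 4T1 (adjusted p = 1.33e-07) on the log2 scale. Nucleotide excision repair had 4 higher and 2 lower of 17 in B16F10 (median 0.07), and 7 higher and 6 lower of 18 in 4T1 (median -0.0081). Its nuclease Ercc5 rose in both lines, by 1.22 in B16F10 (adjusted p = 1.89e-11) and by 0.88 in 4T1 (adjusted p = 1.62e-07). Of 9 translesion synthesis genes, 3 were lower and 2 higher in B16F10 (median -0.07), and 4 were lower and 2 higher in 4T1 (median 0.00035). The polymerase Polk rose in B16F10 (0.62, adjusted p = 2.03e-07) and in 4T1 (0.29, adjusted p = 0.0162). Primpol fell in B16F10 (-0.84, adjusted p = 1.07e-06) and rose in 4T1 (0.39, adjusted p = 0.000249). The 4T1 rises of Polk and Primpol were not checked in other scalings. With library totals alone the median of all genes in 4T1 was -0.27, against 0.03 here, so rises this small may depend on the scaling.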
